A study of Mus musculus and Homo sapiens with 16 samples.

Results

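Cholesterol metabolism genes were followed as a group of 33 among the 39179 genes counted in mouse skin epithelium labelled Klf5-/- or Klf5+/- for the gene of the transcription factor KLF5. They were chosen by gene name, as the enzymes of cholesterol synthesis together with genes of sterol sensing, uptake, storage and export. The group held 8 enzymes of the mevalonate and isoprenoid steps, 11 enzymes of the squalene and sterol steps, 5 genes of the SREBP machinery, 4 genes of sterol transport and storage, and 5 genes around the liver X receptors. All animals were C57BL/6 mice. The E17.5 set held 3 libraries labelled Klf5-/- and 3 labelled Klf5+/-, from embryonic epidermis that was peeled, dissociated and sorted for DAPI-negative, CD45-negative, integrin A6-positive cells. The set titled HFD, letters that the labels leave unexplained, held 2 libraries labelled Klf5-/- and 2 labelled Klf5+/-, from peeled epidermis that was ground without sorting. No age, stage or diet is given for it. Chromatin came from sorted E17.5 epithelium of animals labelled wild type, with 1 sample each of KLF5 ChIP-seq, H3K27ac ChIP-seq and ATAC-seq, the last of which has Het in its title. The comparison group in both RNA sets carries 1 mutant Klf5 allele, so no RNA library is wild type, and the sources used here name neither the driver of the deletion nor the part of Klf5 removed.

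Cholesterol is made from acetyl-CoA by a chain of enzymes whose genes are switched on together by SREBP transcription factors when sterols in the endoplasmic reticulum are low. SCAP carries SREBP to the Golgi for activation, and INSIG proteins hold it back when sterols are plentiful. Liver X receptors sense oxidised sterols and switch on export pumps and a ubiquitin ligase that removes lipoprotein receptors. In epidermis, cholesterol made by keratinocytes is, with ceramides and fatty acids, a building block of the water barrier.

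The promoters of the cholesterol genes are shown first because KLF5, an Sp1-like zinc-finger factor that binds GC-rich DNA, had peaks over several of them. Windows of 250 bases that end just before RefSeq's own gene start (build GRCm38.p6) were available for 27 of the 33 genes. None was at hand for Abcg1, Fdft1, Fdps, Npc1, Sqle and Stard4, which were not scanned for motifs. The RefSeq start of the windows differs from the Ensembl start used for peak distances by up to 7718 bases, the value for Nr1h3. Of those overlapped by an E17.5 KLF5 peak, 5 are printed in coding direction, with CCAAT boxes (CCAAT or its reverse complement ATTGG), GC boxes (GGGCGG or its reverse complement CCGCCC) and the sterol regulatory element (TCACNCCAC) in capitals. Those of Hmgcs1 (chr13:119690101-119690350), Mvk (chr5:114444019-114444268), Lss (chr10:76531355-76531604), Dhcr7 (chr7:143822917-143823166) and Srebf2 (chr15:82147019-82147268) lie on the plus strand. The starts coincide for Mvk, while the Hmgcs1 window ends 111 bases before the Ensembl start, and those of Srebf2, Lss and Dhcr7 run past it by 3, 17 and 22 bases.
Hmgcs1: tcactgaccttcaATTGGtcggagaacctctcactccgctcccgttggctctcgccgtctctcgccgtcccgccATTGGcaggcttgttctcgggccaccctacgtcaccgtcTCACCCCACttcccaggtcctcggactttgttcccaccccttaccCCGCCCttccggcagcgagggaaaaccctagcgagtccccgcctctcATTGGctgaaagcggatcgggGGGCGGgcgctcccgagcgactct
Mvk: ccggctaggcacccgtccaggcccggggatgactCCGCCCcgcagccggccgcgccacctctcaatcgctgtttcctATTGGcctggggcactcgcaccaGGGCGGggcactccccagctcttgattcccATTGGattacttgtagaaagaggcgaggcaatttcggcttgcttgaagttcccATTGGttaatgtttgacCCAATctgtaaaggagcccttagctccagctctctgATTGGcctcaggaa
Lss: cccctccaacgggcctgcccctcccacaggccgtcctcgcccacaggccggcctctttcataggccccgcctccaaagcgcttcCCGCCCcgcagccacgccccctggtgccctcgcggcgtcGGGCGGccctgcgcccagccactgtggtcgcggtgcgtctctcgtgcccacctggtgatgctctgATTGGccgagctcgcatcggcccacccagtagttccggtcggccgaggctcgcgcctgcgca
Dhcr7: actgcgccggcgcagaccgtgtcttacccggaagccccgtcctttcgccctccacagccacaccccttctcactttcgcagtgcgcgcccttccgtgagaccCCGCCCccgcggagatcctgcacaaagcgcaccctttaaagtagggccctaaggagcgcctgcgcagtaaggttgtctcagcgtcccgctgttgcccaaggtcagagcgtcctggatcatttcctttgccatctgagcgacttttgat
Srebf2: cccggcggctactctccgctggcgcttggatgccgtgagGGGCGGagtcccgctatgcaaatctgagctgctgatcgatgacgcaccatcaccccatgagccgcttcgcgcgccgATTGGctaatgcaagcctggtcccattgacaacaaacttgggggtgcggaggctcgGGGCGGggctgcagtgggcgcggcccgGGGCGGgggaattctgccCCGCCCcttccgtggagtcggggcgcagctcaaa

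All 5 windows held at least 1 GC box, and Dhcr7 alone of the 5 held no CCAAT box. CCAAT was present in 74.1% of the 27 windows of cholesterol genes, against 34.5% of 13300 windows of genes tested at E17.5. The GC box was present in 70.4%, against 56.0%. The CACCC box (CCACCC, which can overlap the other motifs and is not marked) was present in 22.2%, against 33.4%. The sterol regulatory element was found, of the 27 windows, only in that of Hmgcs1, against 1.05% of the windows of genes tested. An exact form of the repeat bound by liver X receptors, known as DR4, matched none of the 27 windows and none of those of the genes tested. Each cholesterol gene gave a single window, the one nearest its Ensembl start, while every distinct window of the genes tested was counted. These are exact string matches on both strands, given as a description of the windows.

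Klf5 itself (ENSMUSG00000005148) showed no drop under the Klf5-/- label. In HFD epidermis it was higher under that label without overlap, and at E17.5 the labels overlapped. Its level was 101 and 119.7 CPM, counts scaled to a fixed library size, in the HFD libraries labelled Klf5-/-, against 62.8 and 42.8 CPM in those labelled Klf5+/- (edgeR log2 fold change 1.06, SE 0.23 and adjusted p = 0.0533). At E17.5 it was 197, 177 and 174 CPM in the libraries labelled Klf5-/-, against 180.7, 199 and 163 CPM in those labelled Klf5+/- (0.02, SE 0.10, edgeR adjusted p = 0.982). Reads over the entire gene cannot check a deletion whose extent is unknown, so all directions given here rest on the genotype labels. Libraries held 31819010 to 46445546 counts on genes, and 3 counts corresponded to 0.0646 to 0.0943 CPM.

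The peeled HFD samples differed in their cell type markers along with genotype. The summed level of 8 fibroblast markers was 4647 and 760.0 CPM in the libraries labelled Klf5-/-, against 16618 and 20088 CPM in those labelled Klf5+/-. The summed level of 4 endothelial markers was 47.2 and 11.1 CPM, against 246 and 283 CPM, and that of 6 adipocyte markers 139 and 242 CPM, against 645 and 1068 CPM. Suprabasal keratinocyte markers, 8 of 8 with a log2 fold change above 0, summed to 50679.7 and 55569 CPM, against 24187 and 24958 CPM, and the 7 basal markers to 18789.6 and 20128 CPM, against 15400.4 and 9787 CPM. At E17.5 the suprabasal markers summed to 37829, 32007 and 50523 CPM in libraries labelled Klf5-/-, against 68453, 75096 and 59450.4 CPM in those labelled Klf5+/-, all 8 of them with a log2 fold change below 0. The E17.5 fibroblast sum was 616, 628 and 689 CPM, against 421, 475 and 570.3 CPM, and the endothelial sum stayed under 3 CPM in all 6 libraries. The E17.5 adipocyte sum was 1.62, 15.7 and 2.46 CPM, against 0.496, 0.300 and 1.35 CPM, and of its 6 markers only Lep was at 0 in every library. In such bulk samples a smaller number of cells of a type and less RNA in each of them cannot be told apart.

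**Figure D1:**
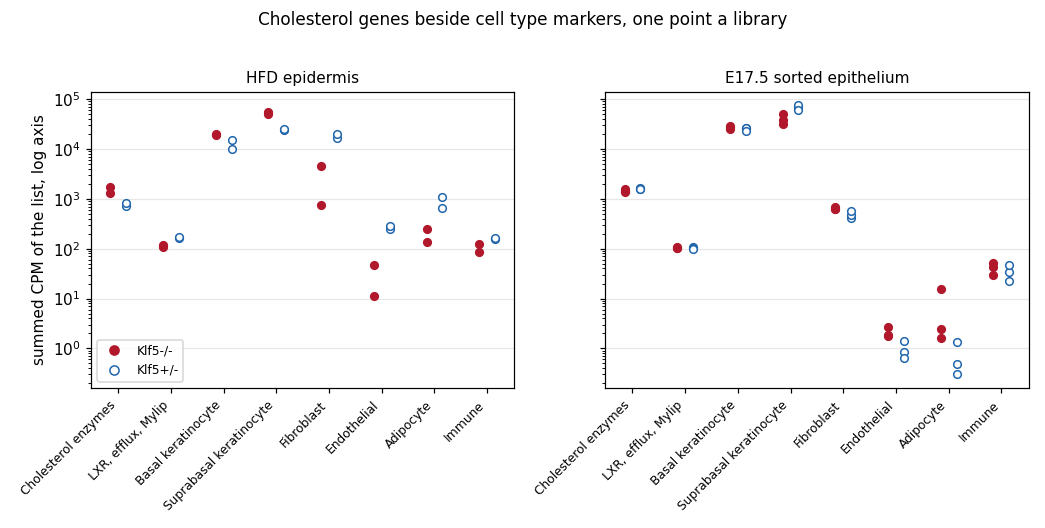
Summed CPM (log axis) of the 19 synthesis enzymes, of the 5 liver X receptor genes and of 6 marker lists, 1 point for each library, HFD on the left and E17.5 on the right, filled red for Klf5-/- and open blue for Klf5+/-. In the HFD set the enzyme, basal and suprabasal sums were higher and the fibroblast, endothelial and adipocyte sums lower in both libraries labelled Klf5-/-.

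Per kilobase of exon, cholesterol genes were among the more abundant genes of the epithelium. Their median level in E17.5 libraries labelled Klf5+/- was 13.5 RPKM, above 82.7% of the 21655 genes with any reads. In HFD libraries labelled Klf5+/- it was 7.86 RPKM, above 75.8% of 21192 genes. At E17.5 the highest was Fdps, farnesyl diphosphate synthase, with 104 ± 4.65 RPKM in libraries labelled Klf5-/- and 113 ± 3.99 RPKM in those labelled Klf5+/- (SD, n = 3 each). Next came Hmgcs1 with 95.4 ± 6.12 and 95.7 ± 4.17 RPKM and the lysosomal sterol carrier Npc2 with 60.7 ± 1.98 and 55.5 ± 3.24 RPKM in the same order of labels. The lowest were Nr1h3, which encodes LXR alpha, with 0.140 ± 0.0825 and 0.175 ± 0.0341 RPKM, and the export pump Abcg1 with 0.742 ± 0.399 and 0.241 ± 0.0803 RPKM.

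In the HFD set Npc2 had 58.9 ± 15.4 RPKM in libraries labelled Klf5-/- and 68.3 ± 3.78 RPKM in those labelled Klf5+/- (SD, n = 2 each), the highest of the 33 with the second label. Fdps had 72.3 ± 15.1 RPKM in HFD libraries labelled Klf5-/- and 38.2 ± 2.68 RPKM in those labelled Klf5+/-, and Hmgcs1 had 68.1 ± 6.38 and 40.0 ± 4.37 RPKM in the same order. Fdps and Hmgcs1 did not differ from each other beyond the spread between libraries within either label. Levels of the sets stand on separately normalised tables from differently prepared tissue, and what sorting and library kit contribute cannot be told apart. No stage is given for the HFD set.

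**Figure D2:**
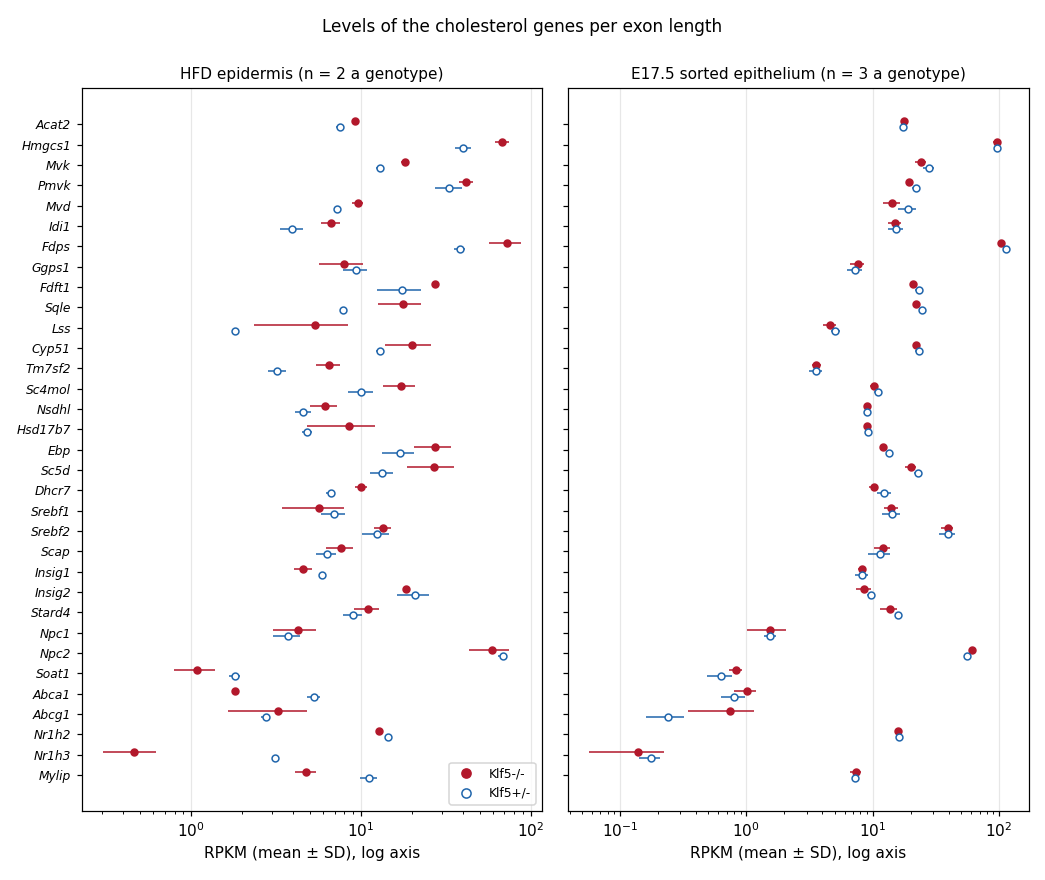
Level of each of the 33 cholesterol genes in RPKM (log axis), mean ± SD, HFD on the left (n = 2 for each label) and E17.5 on the right (n = 3), filled red for Klf5-/- and open blue for Klf5+/-. Most synthesis enzymes lie to the right in HFD libraries labelled Klf5-/- and slightly to the left or level at E17.5.

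In HFD epidermis, the enzymes of cholesterol synthesis were higher in the libraries labelled Klf5-/- along nearly the whole pathway. The summed level of the 19 enzymes was 1285 and 1696 CPM, against 717 and 810.3 CPM in the libraries labelled Klf5+/-. Of the 19, 18 had a log2 fold change above 0, against 49.5% of all 15848 genes tested, with a median of 0.92 against -0.01 over all genes. The CPM of the same 18 did not overlap between labels, where 27.4% of all genes were higher without overlap. At an adjusted p of 0.05 over all genes, 4 enzymes rose (Hmgcs1, Fdps, Sqle and Tm7sf2) and none fell. Of all genes 5.5% were called, 1.48% higher and 4.02% lower. The basal and suprabasal keratinocyte sums were also higher and the fibroblast, endothelial and adipocyte sums lower in these libraries, and their part in the enzyme values was not tested.

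Among mevalonate enzymes, Hmgcs1, the synthase that makes HMG-CoA, had 258 and 299.8 CPM in HFD libraries labelled Klf5-/-, against 148 and 132 CPM in those labelled Klf5+/-. It rose 1.99-fold (edgeR log2 fold change 0.99, SE 0.18 and adjusted p = 0.0415). Fdps, which builds farnesyl diphosphate, had 95.4 and 131 CPM, against 47.7 and 54.6 CPM, and rose 2.21-fold (1.14, SE 0.21, edgeR adjusted p = 0.0415). For both genes the labels were well apart, with the second library labelled Klf5-/- the higher of its pair.

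The other 6 mevalonate and isoprenoid enzymes did not pass the threshold. Mevalonate kinase, Mvk, had 58.7 and 64.7 CPM in libraries labelled Klf5-/-, against 38.0 and 36.8 CPM (edgeR log2 fold change 0.72 with adjusted p = 0.0580). The isomerase Idi1 had 31.9 and 27.4 CPM, against 13.1 and 17.0 CPM (0.98, edgeR adjusted p = 0.0592). In both the labels did not overlap. The decarboxylase Mvd, whose whole span also carries an antisense gene in the annotation, had 22.2 and 20.4 CPM, against 13.2 and 14.5 CPM (0.62). The kinase Pmvk had 74.0 and 85.9 CPM, against 46.6 and 62.5 CPM (0.55), and the thiolase Acat2, which starts the chain, had 28.9 and 30.4 CPM, against 19.7 and 22.0 CPM (0.51). Ggps1, which diverts isoprenoids to protein prenylation instead of sterols, stood apart from the rest with 28.6 and 19.3 CPM, against 26.4 and 21.8 CPM (-0.01, SE 0.26).

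All 11 squalene and sterol enzymes were higher without overlap. Squalene epoxidase, Sqle, had 98.1 and 150.2 CPM in HFD libraries labelled Klf5-/-, against 44.9 and 49.7 CPM in those labelled Klf5+/-, and rose 2.62-fold (edgeR log2 fold change 1.39, SE 0.24 and adjusted p = 0.0390). The sterol reductase Tm7sf2 had 25.0 and 32.1 CPM, against 12.9 and 11.3 CPM, and rose 2.35-fold (1.24, SE 0.23, edgeR adjusted p = 0.0415). It shares 532 bases with Vps51 on the same strand, and how such reads were assigned was not stated by the sources used here. Lanosterol synthase, Lss, had the widest spread, with 43.8 and 104 CPM, against 20.6 and 21.7 CPM, so that the largest enzyme fold change (1.80, SE 0.42) did not pass (edgeR adjusted p = 0.0707).

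The other squalene and sterol enzymes followed the same order of labels without passing the threshold. The desaturase Sc5d had 61.3 and 97.3 CPM in libraries labelled Klf5-/-, against 29.6 and 38.0 CPM (edgeR log2 fold change 1.23 with adjusted p = 0.0542). Dhcr7, which turns dehydrocholesterol into cholesterol, had 44.8 and 51.3 CPM, against 25.7 and 28.9 CPM (0.82, edgeR adjusted p = 0.0573). The methylsterol oxidase Sc4mol had 113 and 155 CPM, against 57.9 and 76.2 CPM (1.00, edgeR adjusted p = 0.0602). In each the lower library labelled Klf5-/- exceeded the higher one labelled Klf5+/-. Squalene synthase, Fdft1, had 95.3 and 103 CPM, against 42.2 and 66.5 CPM (0.87). The demethylase Cyp51 had 84.1 and 133 CPM, against 56.7 and 63.7 CPM (0.85), and the isomerase Ebp had 65.2 and 94.9 CPM, against 35.3 and 49.6 CPM (0.92). The second library labelled Klf5-/- was the higher of the pair for these 3 as well. The reductase Hsd17b7 had 37.6 and 72.2 CPM, against 24.9 and 28.5 CPM (1.04), and the dehydrogenase Nsdhl had 19.2 and 25.2 CPM, against 12.8 and 15.5 CPM (0.65).

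**Figure D3:**
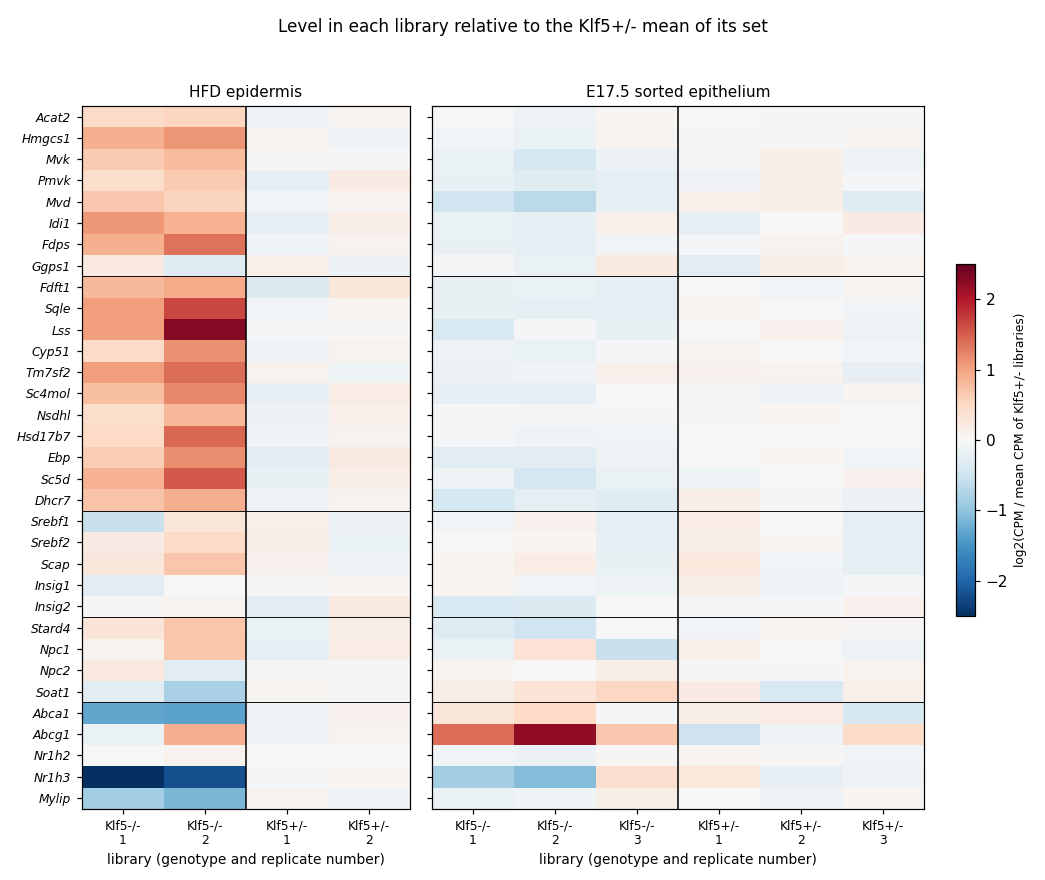
Each cell gives the log2 ratio of a library's CPM to the mean of the Klf5+/- libraries of its set, with red above and blue below, for the 33 cholesterol genes in rows and the libraries in columns, HFD on the left, E17.5 on the right and Klf5-/- left of Klf5+/- in each. In the HFD panel the enzyme rows are red in both libraries labelled Klf5-/- apart from Ggps1, while Abca1, Nr1h3 and Mylip are blue.

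The SREBP machinery itself did not pass the test in HFD epidermis. Srebf2, the SREBP gene most tied to cholesterol enzymes, had 77.2 and 93.3 CPM in libraries labelled Klf5-/-, against 74.6 and 59.5 CPM in those labelled Klf5+/- (edgeR log2 fold change 0.35, SE 0.20 and adjusted p = 0.309). Its chaperone Scap had 43.1 and 57.1 CPM, against 38.2 and 32.7 CPM (0.50, SE 0.21, edgeR adjusted p = 0.193). In these 2 genes the labels did not overlap, by a small margin, where 27.4% of all genes were higher without overlap. Srebf1, the SREBP gene more tied to fatty acid synthesis, had 28.9 and 52.4 CPM, against 46.5 and 38.2 CPM (-0.06, SE 0.31), with overlapping labels. The retention factor Insig1, itself known as an SREBP target, had 14.2 and 17.1 CPM, against 16.6 and 17.8 CPM (-0.13, SE 0.22). Insig2 had 79.8 and 82.9 CPM, against 65.1 and 92.0 CPM (0.05, SE 0.21), again with overlap.

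Genes of sterol transport and storage also stayed short of the threshold. The cytosolic sterol carrier Stard4 had 68.0 and 87.9 CPM in HFD libraries labelled Klf5-/-, against 48.6 and 60.7 CPM (edgeR log2 fold change 0.51 with adjusted p = 0.180). Soat1, which esterifies cholesterol for storage, had 7.78 and 5.36 CPM, against 9.71 and 9.08 CPM (-0.52, edgeR adjusted p = 0.315). These were the only 2 of the 4 whose labels did not overlap, where 27.4% of all genes were higher and 32.7% lower without overlap. The lysosomal exporter Npc1 had 45.8 and 69.9 CPM, against 37.2 and 49.6 CPM (0.42), and Npc2 had 286 and 200.4 CPM, against 247 and 237 CPM (0.01).

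Around the liver X receptors, 3 of 5 genes fell in HFD epidermis, where 4.02% of all genes were called lower. Nr1h3, which encodes LXR alpha, had 1.10 and 1.84 CPM in libraries labelled Klf5-/-, against 8.21 and 8.70 CPM in those labelled Klf5+/-. It was 5.72-fold lower (edgeR log2 fold change -2.52, SE 0.39 and adjusted p = 0.0358). Abca1, a pump that exports cholesterol from the cell, had 24.2 and 23.4 CPM, against 54.7 and 64.1 CPM, and was 2.49-fold lower (-1.32, SE 0.18, edgeR adjusted p = 0.0338). Mylip, the ubiquitin ligase for lipoprotein receptors, had 20.2 and 16.8 CPM, against 39.5 and 34.6 CPM (-1.0, SE 0.20, edgeR adjusted p = 0.0468). In all 3 the libraries of the 2 labels lay far apart. Nr1h2, which encodes LXR beta, had 52.9 and 55.7 CPM, against 52.1 and 52.8 CPM (0.05, SE 0.16), nearly touching, and the pump Abcg1 had 10.8 and 22.7 CPM, against 11.3 and 12.9 CPM (0.47, SE 0.37). The adipocyte and fibroblast sums given above, and the summed level of 7 macrophage and other immune markers, at 125 and 86.5 CPM in libraries labelled Klf5-/- against 157 and 161 CPM, were also lower in these libraries. Of the 7 immune markers 4 had a log2 fold change below 0 and 3 above it, among them Cd3g with 9.01 and 8.57 CPM, against 3.33 and 3.70 CPM. The part of these cell types in the result was not tested. Part of Nr1h3 is shared with the annotated gene Gm13783 on the same strand.

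The 7 calls rested on each of the Klf5+/- libraries of the HFD set. Without either of them, leaving 1 library with that label that is assumed to vary like the other group, no cholesterol gene passed in edgeR, with 13 and 18 at an unadjusted p under 0.05. Without the first or the second library labelled Klf5-/-, 24 and 16 passed, and these included all 7. Calls over all genes moved alike. They numbered 5389 and 2681 in the same fits, and 36 and 19 in those that left out a Klf5+/- library, against 872 with all 4. Scaled to library totals, which shifted the median of all HFD genes by -0.22, only Sqle, Abca1, Nr1h3 and Mylip passed.

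In sorted E17.5 epithelium no cholesterol gene passed, where 0.0861% of 15092 genes did (0.0331% higher and 0.053% lower). At an unadjusted p under 0.05 edgeR gave 8 lower and 1 higher, where 10.0% of all genes had such a p, and DESeq2 called 1, Abcg1. Of the 19 enzymes, 18 had a log2 fold change below 0, against 47.3% of all genes, with a median of -0.16 against 0.01 over all genes, and 14 did when scaled to library totals. The summed level was 1432, 1383 and 1540.1 CPM in libraries labelled Klf5-/-, against 1586, 1624 and 1592 CPM in those labelled Klf5+/-. For 9 enzymes the labels did not overlap, where 8.18% of all genes were lower without overlap. The suprabasal marker sum was lower and the fibroblast sum higher in the same libraries, and their part was not tested.

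The enzyme with the largest E17.5 difference was Mvd, with 27.8, 24.7 and 34.2 CPM in libraries labelled Klf5-/-, against 42.9, 43.5 and 32.2 CPM (edgeR log2 fold change -0.45, SE 0.15 and adjusted p = 0.295). The third libraries of both labels overlapped. Dhcr7 had 41.0, 47.5 and 44.9 CPM, against 62.8, 53.7 and 50.5 CPM, without overlap (-0.32, SE 0.11, edgeR adjusted p = 0.285). Sqle had 142, 139 and 142 CPM, against 169, 164 and 155 CPM (-0.21, SE 0.08), and Fdft1 had 68.7, 70.0 and 68.4 CPM, against 78.8, 74.8 and 81.8 CPM (-0.18, SE 0.08). Both were lower without overlap, as were Mvk, Pmvk, Fdps, Hsd17b7, Ebp and Sc5d, whose log2 fold changes lay between -0.25 for Mvk and -0.08 for Hsd17b7.

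Of those, Mvk had 78.5, 64.6 and 79.9 CPM in libraries labelled Klf5-/-, against 86.1, 98.2 and 80.3 CPM. Pmvk had 35.1, 32.3 and 34.3 CPM, against 37.3, 44.0 and 38.3 CPM, and Ebp had 31.1, 31.1 and 34.1 CPM, against 37.7, 38.6 and 35.3 CPM. Sc5d had 57.8, 47.3 and 56.1 CPM, against 58.2, 63.3 and 67.6 CPM. In each the margin between the labels was narrow. The 4 enzymes called in HFD epidermis had small values here, with log2 fold changes of -0.05 for Hmgcs1, -0.16 for Fdps, -0.21 for Sqle and -0.04 for Tm7sf2. Hmgcs1 had 350.2, 329.9 and 388 CPM, against 354, 363 and 387 CPM, with overlapping labels. Fdps had 146, 140.5 and 159 CPM, against 160.2, 175 and 161 CPM, and Tm7sf2 had 13.3, 13.9 and 16.0 CPM, against 15.9, 15.6 and 12.8 CPM.

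The other enzymes overlapped between labels at E17.5. Lss had 50.3, 63.7 and 57.7 CPM in libraries labelled Klf5-/-, against 66.0, 70.2 and 59.4 CPM (log2 fold change -0.19, SE 0.11). Sc4mol had 69.7, 69.3 and 80.5 CPM, against 82.7, 75.4 and 84.7 CPM (-0.14, SE 0.09), and Cyp51 had 108, 106 and 114 CPM, against 123, 118 and 113 CPM (-0.11, SE 0.08). In these 3 a single library labelled Klf5-/- reached into the range of the other label. Idi1 had 56.7, 55.5 and 69.9 CPM, against 54.9, 63.4 and 73.5 CPM (-0.07, SE 0.13). Acat2 had 52.5, 48.3 and 54.6 CPM, against 52.6, 54.0 and 52.2 CPM (-0.03, SE 0.09), and Nsdhl had 29.7, 30.1 and 29.7 CPM, against 30.0, 31.4 and 30.2 CPM (-0.03). Ggps1 was the only enzyme with a log2 fold change above 0, of 0.02. Hsd17b7, which did not overlap, had 53.6, 51.4 and 53.3 CPM, against 56.3, 55.4 and 55.1 CPM.

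The E17.5 sensing genes had log2 fold changes between -0.23 and 0.03. Srebf2 had 231, 241 and 202 CPM in libraries labelled Klf5-/-, against 259, 239 and 199 CPM (log2 fold change -0.05, SE 0.11). Srebf1 had 89.7, 102 and 81.5 CPM, against 108, 94.8 and 81.0 CPM (-0.05, SE 0.12), and Scap had 72.8, 80.2 and 61.9 CPM, against 83.8, 67.4 and 59.4 CPM (0.03, SE 0.14). All 3 overlapped, with the third library of each label the lowest. Insig1 had 27.5, 25.2 and 24.2 CPM, against 29.4, 24.5 and 25.7 CPM (-0.05, SE 0.11), and Insig2 had 30.9, 31.5 and 40.0 CPM, against 38.4, 38.5 and 43.1 CPM (-0.23, SE 0.12), both with overlap. Stard4 had 84.4, 74.4 and 105 CPM, against 101, 108 and 107 CPM (-0.27, SE 0.12), where the third library labelled Klf5-/- lay within the range of the other label. The other transport genes had log2 fold changes of -0.07 for Npc1, 0.08 for Npc2 and 0.34 for Soat1, none past the threshold.

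Abcg1 had the largest E17.5 fold change, at a low level. It had 3.07, 5.43 and 1.87 CPM in libraries labelled Klf5-/-, against 0.820, 1.08 and 1.60 CPM in those labelled Klf5+/- (edgeR log2 fold change 1.57, SE 0.41 and adjusted p = 0.166). The labels did not overlap, as for 6.63% of all genes on the higher side. The adipocyte sum given above was also higher in these libraries, and highest in the same one, and its part was not tested. Nr1h3 was low, with 0.284, 0.246 and 0.694 CPM, against 0.626, 0.451 and 0.491 CPM (-0.36, SE 0.54). Abca1 had 12.2, 13.9 and 9.66 CPM, against 10.9, 11.2 and 7.46 CPM (0.27, SE 0.19), and Mylip had 23.8, 24.8 and 29.5 CPM, against 26.9, 25.1 and 27.7 CPM (-0.03, SE 0.11). Nr1h2 had 61.7, 58.0 and 65.5 CPM, against 66.4, 65.9 and 61.2 CPM (-0.06, SE 0.09). These 4 overlapped between labels.

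**Figure D4:**
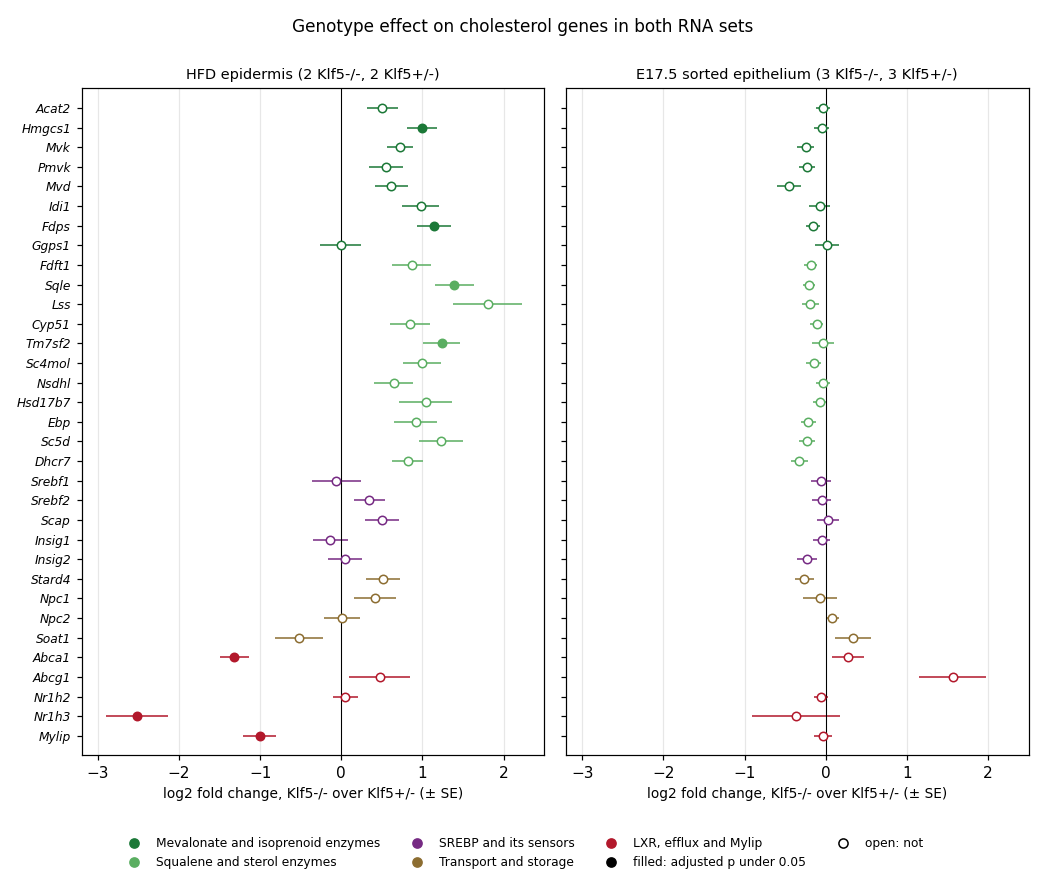
Log2 fold change of Klf5-/- over Klf5+/- with its SE for the 33 cholesterol genes, HFD on the left and E17.5 on the right, coloured by role and filled where the edgeR adjusted p was under 0.05. Synthesis enzymes other than Ggps1 lie above 0 in the HFD set and near or just below 0 at E17.5, and 7 points are filled, all in the HFD panel.

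The genotype differences of the sets differed for most cholesterol genes. In a fit of all 10 libraries, the HFD log2 fold change exceeded that at E17.5 for 19 of 33 genes and fell short of it for 3, where 7.07% and 7.61% of 17260 genes were called in these directions. The 19 were the 18 enzymes other than Ggps1, together with Stard4. The difference was largest for Lss at 2.00 (SE 0.40, edgeR adjusted p = 0.0118), followed by Sqle at 1.61 (SE 0.22, edgeR adjusted p = 0.00283) and Sc5d at 1.48 (SE 0.26, edgeR adjusted p = 0.00652). Nr1h3 at -2.14 (SE 0.64, edgeR adjusted p = 0.0452), Abca1 at -1.58 (SE 0.28, edgeR adjusted p = 0.00602) and Mylip at -0.96 (SE 0.20, edgeR adjusted p = 0.0124) were the 3 in the other direction. The median over the 19 enzymes was 1.08, against -0.02 over all genes. None of the 5 SREBP genes passed, the closest being Scap at 0.48 (SE 0.26, edgeR adjusted p = 0.239). Without the first HFD library labelled Klf5+/- the count of 22 was 11, and the enzymes among them 10. The sets differ in sorting and kit as well as title, which cannot be told apart, and the stage of the HFD set is not given.

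Of 50 further genes of sterol and fatty acid metabolism, 48 were tested in each set. In HFD epidermis 2 rose and 2 fell, where 1.48% of all genes were called higher and 4.02% lower, and the list's median was -0.05, against -0.01 over all genes. The rises were in Sult2b1, which makes the cholesterol sulfate of the outer epidermis, and in the fatty acid binding protein gene Fabp5. Sult2b1 had 133 and 181 CPM in libraries labelled Klf5-/-, against 60.0 and 56.0 CPM (edgeR log2 fold change 1.44 with adjusted p = 0.0339), and Fabp5 had 3431 and 4427 CPM, against 1019.9 and 1248 CPM (1.79, edgeR adjusted p = 0.0339). The falls were in Scarb1 and Lipa, and their count was close to the share of all genes called lower. Counts this small are no result about the list, and the genes are given by their values. The lipoprotein receptor gene Scarb1 had 29.8 and 20.7 CPM, against 98.7 and 84.5 CPM (-1.86, edgeR adjusted p = 0.0337), and the lysosomal lipase gene Lipa had 8.70 and 7.63 CPM, against 22.9 and 25.3 CPM (-1.56, edgeR adjusted p = 0.0338).

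At E17.5 none of the 48 passed in edgeR, with 3 at an unadjusted p under 0.05, all lower, where 10.0% of all genes had such a p. A count this small is no result about the list, and the 3 are given by their values. Sult2b1 had 41.2, 34.7 and 55.6 CPM in libraries labelled Klf5-/-, against 82.1, 94.8 and 73.8 CPM, without overlap (edgeR log2 fold change -0.93 with adjusted p = 0.0868). The elongase gene Elovl6 had 62.0, 56.6 and 67.0 CPM, against 73.5, 78.8 and 74.7 CPM (-0.29). The endoplasmic reticulum gene Erlin1 had 84.0, 87.1 and 89.2 CPM, against 92.3, 109 and 104 CPM (-0.23). In all 3 genes the labels did not overlap.

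KLF5 peaks lay near the gene starts of 12 of the 33 cholesterol genes (36.4%), counting peaks that overlapped a window of 5 kb on each side, against 22.9% of all genes tested at E17.5. They were 6 of the 8 mevalonate and isoprenoid enzymes (Hmgcs1, Mvk, Pmvk, Mvd, Idi1 and Fdps), 4 of the 11 squalene and sterol enzymes (Fdft1, Lss, Sc4mol and Dhcr7), Srebf2 and Stard4. None of the 5 liver X receptor genes had one. The same 12 genes had a peak in a window of 1 kb, where 18.9% of all genes did. Fold enrichment values are those of the authors' peak lists and are used here only to rank peaks within a list.

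The highest KLF5 fold enrichment was at Srebf2, 5.34 (chr15:82146868-82147401), above 92.6% of the 6472 peaks of the list, with its summit 111 bases upstream of the gene start. Fdft1 followed with 5.26 (chr14:63177759-63178284), its summit 303 bases upstream, and Mvk with 5.15 (chr5:114443801-114444346), its summit 118 bases upstream. Mvk, the lowest of these 3, was above 89.7% of the list. The lowest were Idi1 with 3.69 (chr13:8885702-8885903), above 30.5% of the list and 381 bases downstream, and Lss with 3.88 (chr10:76531457-76531656), 13 bases upstream. The Mvd peak (chr8:122444350-122444742) had its summit farthest out, 1067 bases upstream, and that of Stard4 lay 1 base from the start.

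H3K27ac, a mark of active promoters and enhancers, had peaks near 28 of the 33 genes (84.8%), against 63.5% of all genes tested, and open chromatin by ATAC-seq near 32 (97.0%), against 84.4%. All 19 enzymes had both. The highest H3K27ac fold enrichment among cholesterol genes was at Idi1, 6.45, above 97.1% of 18155 peaks, then Npc2 with 6.23 and Nr1h2 with 6.06. The highest ATAC values were at Cyp51 and Acat2, both 13.7 and above 99.3% of 41905 peaks. Genes without an H3K27ac peak in the window were Scap, Stard4, Npc1, Soat1 and Abcg1, and Soat1 also lacked an ATAC peak. All 3 kinds of peak were present at 11 genes, the 12 with KLF5 apart from Stard4. The share of all genes with all 3 was not counted, so the 11 are a description only.

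**Figure D5:**
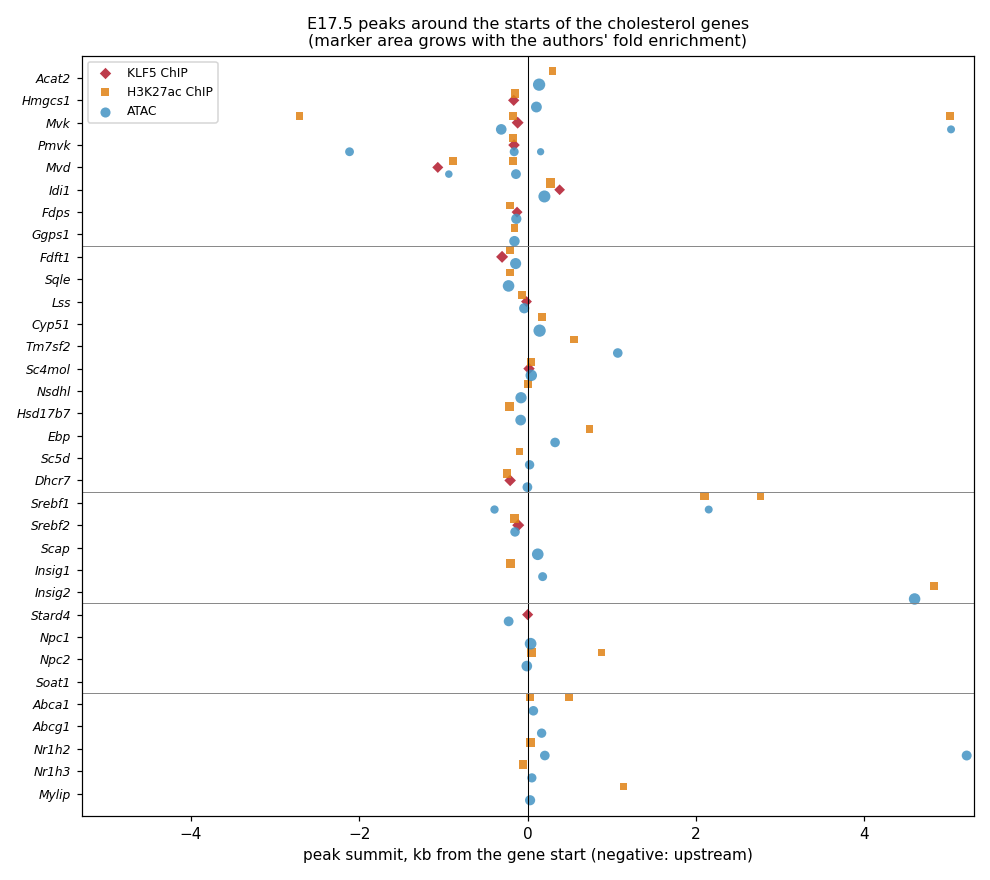
Summits of E17.5 peaks that overlap 5 kb on each side of the gene start, in kb from the start (negative is upstream), for the 33 cholesterol genes in rows, with red diamonds for KLF5, orange squares for H3K27ac and blue circles for ATAC, and marker area growing with the authors' fold enrichment. KLF5 summits sit within 381 bases of the start except at Mvd, and none is drawn for the 5 genes in the lowest block, those of the liver X receptors.

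Set beside the RNA values, the 12 genes with a KLF5 peak had a median log2 fold change of 0.84 in HFD epidermis, where all 12 were above 0, against 0.42 for the 21 without, of which 14 were above 0. At E17.5, the stage of the ChIP, the median was -0.19 for the 12, all of them below 0, against -0.05 for the 21, of which 15 were below 0. Among the 4 enzymes called in HFD epidermis, Hmgcs1 and Fdps had a KLF5 peak and Sqle and Tm7sf2 did not, and neither did the 3 genes that fell. Of the 12 genes with a peak, 10 were synthesis enzymes, and all 5 liver X receptor genes were among the 21. The 19 enzymes, with or without a peak, had a median of 0.92 in HFD epidermis and -0.16 at E17.5. Within the enzymes, HFD values with a peak ran from 0.55 for Pmvk to 1.80 for Lss. Those without a peak ran from 0.51 for Acat2 to 1.39 for Sqle, apart from Ggps1 at -0.01. The part of the makeup of the groups in the contrast was not tested. These are descriptions of 1 ChIP sample against fold changes, with no test.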

How the data were processed

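RNA libraries were deposited as counts of reads per Ensembl gene, and the HFD tables also hold the authors' RPKM, which counts, exon lengths and file totals gave back within a relative deviation of 7.6e-14. The submitters' processing notes list STAR 2.6.0b, HTSeq, Bowtie 1.0.1, Bowtie2 2.2.3 and MACS2 and the build mm10. The strand setting of the counting, and the control and threshold of the peak calls, were not stated by the sources used here. Peak lists came with the authors' fold enrichment, a ratio over local background, and with −log10 p- and q-values in the deposited columns. IgG and HaCaT chromatin data were not used here.

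Rows that name no gene, 13.38 to 16.85% of the reads of a library, were left out. E17.5 RPKM were computed with the exon lengths of the HFD tables. In R 4.3.3, each set was fitted with edgeR 4.0.16 (TMM scaling, filterByExpr, robust quasi-likelihood test, two-sided, Benjamini-Hochberg adjustment over all genes, threshold 0.05), and the difference of the genotype effects in a fit of all 10 libraries. CPM are on TMM-scaled library sizes. The fits were tested on simulated data. Of 100 genes given a log2 change of 1, the HFD fit called 15, the E17.5 fit 70 and the difference 18. With a log2 change of 2 they called 74, 88 and 76 of 100. Genes given no change were called 15, 11 and 15 times. Most changes of log2 1 were thus missed in the HFD fit and in the difference, so a gene that did not pass there may still differ. Among the simulated calls of these 2 fits, unchanged genes made up a larger share than the threshold of 0.05 allows. A gene that passed there may therefore be a false call more often than the threshold states. DESeq2 1.42.0, other scalings, no filter, a replicate block and leaving out each library were the alternatives. Nothing says that libraries come from separate animals, so p-values measure the spread between libraries, which may be technical. Peaks were assigned to a gene when they overlapped 5 kb on either side of its start.

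The members and lists were chosen with earlier results of these data known. Values in every library are given for members past an adjusted p of 0.05 in any test, for the 8 with the smallest unadjusted p in each set and for the sensing genes, and of the other sterol genes for those past the threshold and the 3 with the smallest unadjusted p. Spans of 12 of the 33 genes overlap another annotated gene, and reads of partners on opposite strands cannot be told apart without the strand setting.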

Additional observations from a re-analysis of the deposited data

Results flagged for a closer look

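For 22 of the 33 cholesterol genes the genotype effect in HFD epidermis differed from that at E17.5 in a test of the difference itself (edgeR, adjusted p under 0.05 over all genes). Of 17260 genes tested, 14.7% were called in either direction. Values are HFD log2 fold change minus E17.5 log2 fold change.

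Among the mevalonate and isoprenoid enzymes the difference was 0.55 for Acat2, 1.05 for Hmgcs1, 0.98 for Mvk and 0.80 for Pmvk. It was 1.08 for Mvd, 1.07 for Idi1 and 1.32 for Fdps. Of this group only Ggps1 did not pass.

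Among the squalene and sterol enzymes it was 1.07 for Fdft1, 1.61 for Sqle, 2.00 for Lss and 0.97 for Cyp51. It was 1.28 for Tm7sf2, 1.16 for Sc4mol, 0.70 for Nsdhl and 1.13 for Hsd17b7. It was 1.14 for Ebp, 1.48 for Sc5d and 1.15 for Dhcr7, so that all 11 passed.

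Outside the enzymes, the sterol carrier gene Stard4 had a difference of 0.79. The differences of Abca1 (-1.58), Nr1h3 (-2.14) and Mylip (-0.96) ran the other way. Cell type marker sums also differed between genotypes in each set, with suprabasal keratinocyte sums higher in HFD libraries labelled Klf5-/- and lower in E17.5 libraries with that label, and their part in these differences was not tested.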

How the results depend on the processing

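The median log2 fold change of the 33 genes kept its sign in every fit that left out a library, 0.48 to 0.72 in HFD epidermis and -0.13 to -0.07 at E17.5. Counts of calls moved more. Of the 33 genes, the 0 called at E17.5 became 1 with DESeq2 and 1 with no filter (Abcg1 in both), and 2 with libraries 1 and 2 alone. The 7 called in HFD epidermis became 18 with DESeq2, 4 on library totals, 16 with no filter and 21 in a fit of all 10 libraries. Over all genes, the 13 called at E17.5 became 461 with DESeq2, 6 on library totals, 237 with no filter, 3 with all 10 libraries and 501 with libraries 1 and 2 alone. The 872 called in HFD epidermis (235 higher, 637 lower) became 2906 with DESeq2, 1340 on library totals (138 higher, 1202 lower), 2396 with no filter and 3672 with all 10 libraries. The causes were not tested.

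Leaving out 1 library at a time gave 0 to 3 cholesterol genes and 0 to 513 genes at E17.5, and 0 to 24 cholesterol genes and 19 to 5389 genes in HFD epidermis. The highest E17.5 count of cholesterol genes, without the third library labelled Klf5-/-, was of Mvd, Stard4 and Abcg1. The difference between sets passed for 11 to 21 of the genes, against 22 with every library. Counts of synthesis enzymes were added as alternatives after the data were seen. They gave 18 to 19 above 0 in HFD epidermis, 16 to 19 below 0 at E17.5 and 10 to 18 with a higher difference. Where a label was left with 1 library, it was assumed to vary like the others. Calls over all genes were not counted for the difference between sets in the alternative fits.

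Signs turned only for values that had not passed the threshold. On library totals the E17.5 log2 fold change was 0.033 for Acat2, 0.015 for Hmgcs1, 0.029 for Tm7sf2, 0.033 for Nsdhl, 0.014 for Srebf1, 0.018 for Srebf2, 0.014 for Insig1, 0.0081 for Npc1, 0.0019 for Nr1h2 and 0.032 for Mylip. With libraries 1 and 2 alone it was -0.056 for Ggps1 and 0.069 for Npc1. In HFD epidermis it was 0.022 for Ggps1 with DESeq2, 0.022 with relative log expression factors, and on library totals -0.17 for Insig2, -0.22 for Npc2 and -0.17 for Nr1h2. The difference between sets on library totals was -0.29 for Srebf1, -0.0025 for Insig2 and -0.17 for Nr1h2.

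Leaving out 1 library, E17.5 values spanned 0 for Acat2 (-0.072 to 0.016), Hmgcs1 (-0.12 to 0.0032), Idi1 (-0.19 to 0.037), Ggps1 (-0.11 to 0.095), Tm7sf2 (-0.13 to 0.024), Srebf1 (-0.16 to 0.056), Srebf2 (-0.15 to 0.037), Scap (-0.079 to 0.18), Insig1 (-0.11 to 0.033), Npc1 (-0.35 to 0.13) and Mylip (-0.13 to 0.033). HFD values did for Ggps1 (-0.29 to 0.28), Srebf1 (-0.52 to 0.33), Insig1 (-0.24 to 0.024), Insig2 (-0.17 to 0.32), Npc2 (-0.24 to 0.28) and Abcg1 (-0.13 to 0.94). The difference did for Ggps1 (-0.32 to 0.24), Srebf1 (-0.49 to 0.37), Insig1 (-0.22 to 0.063) and Npc2 (-0.34 to 0.17).

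Whether libraries with the same replicate number share a batch cannot be settled from these values. Deviations of same-numbered E17.5 libraries correlated at 0.05, -0.12 and 0.25 over genes, and those of differently numbered ones at -0.29 to 0.28. The HFD set has 2 pairs, at 0.21. With 2 libraries for each label, the differently numbered HFD pairs must have the same size with the other sign, -0.21. With a replicate block, 0 cholesterol genes and 42 genes passed at E17.5, 14 and 1520 in HFD epidermis, and 20 cholesterol genes in the difference. The HFD value of Npc2 was then -0.013 and the difference of Srebf1 -0.050.

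The HFD set has 2 libraries for each label and each chromatin assay has 1 sample, which limits the precision of these values. Depth limits Nr1h3 and Abcg1 at E17.5, whose counts are low. A KLF5 peak was counted at 12 of the 33 cholesterol genes with either window. When only peaks at or above the median fold enrichment were kept, it was counted at 9 of the 33. At that cut 12.4% of all genes tested at E17.5 had such a peak.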
